A study of Mus musculus with 28 samples.

Results

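The genes described here are 10 precursors of forebrain neuropeptides, Pdyn, Penk, Adcyap1, Vip, Tac1, Cort, Sst, Npy, Cck and Crh, chosen by symbol. All 10 were found among the 21192 genes with a test per the authors' deposited tables. Nascent RNA was measured by Bru-seq: living cells briefly incorporate bromouridine into new transcripts, an antibody pulls these down for sequencing, and the reads show which genes were being transcribed during labelling. The cells were primary cultures of CD1 mouse forebrain taken at embryonic day 18, a mixture of neurons, astrocytes and oligodendrocyte precursor cells. All of them carried a lentivirus from day in vitro 14, encoding either a control shRNA (shCtrl) or one that targets Rai1 (shRai1), the gene of a chromatin-associated regulator of transcription, and were harvested on day 17. Each arm was exposed for 4 hours to water as vehicle, to 1 µM tetrodotoxin (TTX), which blocks sodium channels and so action potentials, or to 20 µM bicuculline (BIC), which blocks GABA-A receptors and so raises network firing, with bromouridine added for the final 20 minutes. The 16 libraries formed 6 groups of 3, but shCtrl vehicle had only replicates 1 and 2, and shCtrl BIC only replicates 2 and 3. The 12 ChIP-seq samples of the series were not analysed here.

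Neuropeptides are cut from larger precursor proteins, packed into dense-core vesicles and released during sustained firing, and they act mainly on G-protein-coupled receptors. In the forebrain several of them mark classes of GABAergic interneuron, and others are made by excitatory cells. Transcription of a number of precursor genes is known to follow neuronal activity, through calcium and cAMP signals that reach factors such as CREB.

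The values come from 7 deposited comparison tables and from 1 deposited FPKM table (fragments per kilobase of gene and per unit of depth), which gives a single level for each condition, so no value per library can be shown and the depth of single libraries is unknown. The mean normalized count over all libraries ran from 5.02 for Crh to 873 for Cck, against a median of 107 over all genes tested, and 7 of the 10 precursors had a mean of at least 50. Standard errors (SE) and p-values reflect library-to-library spread as estimated in the authors' model. That the libraries came from separate cultures is not stated, so the spread may be technical in part. The targeted gene did not check the arm labels: per the authors' deposited tables nascent Rai1 differed between shRai1 and shCtrl by 0.16 in vehicle (SE 0.073), -0.12 in TTX (SE 0.0643) and 0.03 in BIC (SE 0.0728) on the log2 scale, with adjusted p of 0.357, 1.00 and 1.00, by the DESeq2 Wald test. The FPKM columns of the knockdown arm went against their names: over 12112 genes their log2 ratios to the untreated column correlated with the matching comparison at -0.640 for the column named TTX and 0.274 for that named bicuculline, against 0.739 and 0.772 for the control columns. Only control FPKM is therefore given below. Of the marker lists, 10 of 10 excitatory neuron genes, 10 of 10 astrocyte genes and 9 of 10 genes of the oligodendrocyte lineage reached 1 FPKM in shCtrl vehicle, as did 5 of 10 microglia genes and 0 of 5 endothelial genes.

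The promoters below are shown because precursors that responded strongly to both drugs and precursors that hardly responded hold the same short sequence. The CRE is the site bound by CREB, and its full form, TGACGTCA, was searched together with its core, TGACG on one strand or CGTCA on the other, which lies within the full form. RefSeq promoters of GRCm38.p6 were matched for 8 of the 10 genes, Pdyn, Npy, Sst, Vip, Cck, Tac1, Adcyap1 and Cort, and not for Penk and Crh. The 250 bases before the annotated start are printed 5′ to 3′ along the gene's strand, and capitals mark the CRE or its core. They lie at chr17:93198767-93199016 (plus strand) for the first of the Adcyap1 promoters, chr6:7554811-7555060 (plus strand) for Tac1, chr4:149126764-149127013 (minus strand) for Cort, chr16:23890845-23891094 (minus strand) for Sst, chr9:121495695-121495944 (minus strand) for Cck and chr2:129699939-129700188 (minus strand) for the first of the Pdyn promoters.
Adcyap1: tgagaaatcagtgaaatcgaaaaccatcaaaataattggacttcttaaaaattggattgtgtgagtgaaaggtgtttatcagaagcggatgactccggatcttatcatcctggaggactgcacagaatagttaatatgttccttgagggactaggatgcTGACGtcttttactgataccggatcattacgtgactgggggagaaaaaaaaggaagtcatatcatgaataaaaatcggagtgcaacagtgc
Tac1: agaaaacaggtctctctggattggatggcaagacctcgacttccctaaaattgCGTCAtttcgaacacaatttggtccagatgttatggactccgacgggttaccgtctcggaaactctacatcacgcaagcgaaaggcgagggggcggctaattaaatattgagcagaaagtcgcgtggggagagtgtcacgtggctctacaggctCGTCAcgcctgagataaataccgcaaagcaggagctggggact
Cort: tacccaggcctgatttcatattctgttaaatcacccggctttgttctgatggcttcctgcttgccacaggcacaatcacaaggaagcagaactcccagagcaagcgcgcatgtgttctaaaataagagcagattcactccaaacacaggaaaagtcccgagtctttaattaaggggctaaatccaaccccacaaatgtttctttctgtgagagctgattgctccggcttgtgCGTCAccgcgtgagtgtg
Sst: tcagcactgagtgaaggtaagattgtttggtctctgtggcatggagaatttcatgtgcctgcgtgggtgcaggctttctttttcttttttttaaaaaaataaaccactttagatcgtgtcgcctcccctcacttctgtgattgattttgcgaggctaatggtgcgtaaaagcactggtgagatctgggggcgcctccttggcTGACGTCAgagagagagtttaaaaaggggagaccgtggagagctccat
Cck: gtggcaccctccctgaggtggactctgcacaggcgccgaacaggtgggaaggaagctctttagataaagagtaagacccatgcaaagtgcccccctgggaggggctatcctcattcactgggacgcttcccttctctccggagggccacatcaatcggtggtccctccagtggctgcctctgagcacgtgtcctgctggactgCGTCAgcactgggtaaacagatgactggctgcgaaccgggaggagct
Pdyn: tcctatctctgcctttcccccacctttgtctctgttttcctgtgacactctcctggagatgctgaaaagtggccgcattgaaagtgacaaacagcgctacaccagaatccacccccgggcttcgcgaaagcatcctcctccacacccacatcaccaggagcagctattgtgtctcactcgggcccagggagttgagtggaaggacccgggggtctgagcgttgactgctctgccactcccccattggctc

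Sst alone of the 8 genes held the full CRE, 48 to 41 bases before its start, and 1.55% of 32851 RefSeq promoters of this length hold it. The core was found in 6 of the 8 genes (Adcyap1, Tac1, Cort, Sst, Cck and Vip), each counted if any of its promoters held it. By promoter that was 7 of 10, with a site that the overlapping Adcyap1 promoters share, against 17.8% of all promoters. The position of the core was -91 to -87 in the Adcyap1 promoter printed and -242 to -238 in a second one that overlaps it. It was -18 to -14 in Cort, -47 to -43 in Cck and -79 to -75 in Vip. Tac1 held the core at -197 to -193 and again at -43 to -39. Neither Pdyn promoter nor that of Npy held these letters in this window. No window of the 8 genes held the AP-1 letters TGANTCA (6.75% of all promoters) or the EGR letters GCGNGGGCG (4.70%), both searched on both strands. The letters are a description of these windows and not evidence of binding.

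In unperturbed control cultures the precursors spanned more than 2 orders of magnitude in nascent level per length. Sst, which encodes somatostatin and marks a class of dendrite-targeting interneuron, had 162 FPKM in shCtrl vehicle per the authors' deposited table (bounds of the file 122 to 201), and Cck, which encodes cholecystokinin, had 133 (100.1 to 166). Penk, which encodes the enkephalin precursor, had 90.5 FPKM (69.3 to 112), and Npy, which encodes neuropeptide Y, had 41.4 (26.6 to 56.3). The bounds of Sst overlap those of Cck, and those of Cck overlap those of Penk, while Penk stood apart from Npy. Cort, which encodes cortistatin, followed with 11.8 FPKM (4.05 to 19.6) per the authors' deposited table, apart from Npy. Adcyap1, the gene of PACAP, had 5.36 FPKM (3.15 to 7.57), Vip, the gene of vasoactive intestinal peptide, 3.88 (1.75 to 6.0), and Tac1, the gene of substance P, 2.64 (0.550 to 4.73). Each of these overlaps its neighbour in the order. Lowest in this order were Crh, which encodes corticotropin-releasing hormone, at 0.528 FPKM (0 to 1.48), and Pdyn, which encodes the dynorphin precursor, at 0.483 (0 to 1.12), both with a lower bound at 0 per the authors' deposited table. The intervals of the authors' table, in mm9, the build in the submitters' processing notes, place Pdyn at chr2:129512285-129525674, Penk at chr4:4060683-4065592, Adcyap1 at chr17:93598762-93604829, Vip at chr10:4698927-4707323 and Tac1 at chr6:7505071-7512973. Cort is at chr4:148499300-148500850, Sst at chr16:23889667-23890930, Npy at chr6:49772728-49779504, Cck at chr9:121398942-121404812 and Crh at chr3:19593401-19595396, and no interval overlaps another listed gene.

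**Figure D1:**
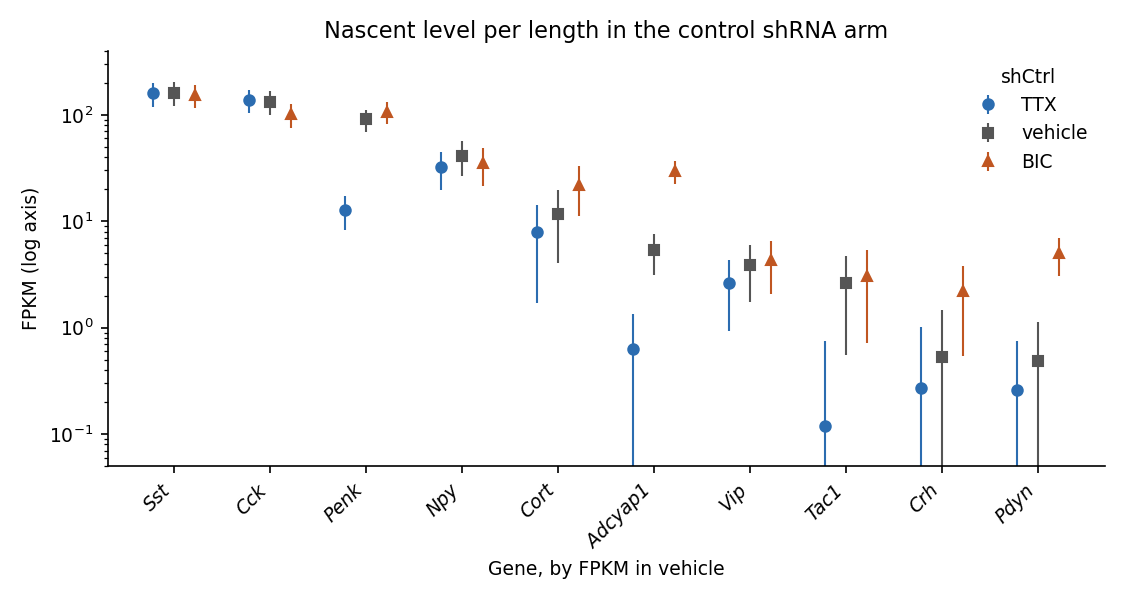
Nascent level per length of the 10 precursors in the shCtrl arm, as the authors' FPKM for TTX (circles), vehicle (squares) and BIC (triangles) on a log axis; lines are the bounds of the file, and a line that meets the axis has a bound at or near 0. Sst is highest in all 3 conditions, Penk drops from 90.5 to 12.8 FPKM under TTX, and Adcyap1 spreads from 0.624 to 29.6 FPKM.

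Every precursor that passed in the control arm was lower under TTX or higher under BIC, and Adcyap1, Tac1 and Cort passed under both drugs. TTX lowered 6 of the 10 and raised none, where 10.9% of all genes tested were lower with an adjusted p under 0.05, per the authors' deposited table. BIC raised 5 and lowered none, where 13.7% of all genes were higher. The median log2 change of the 10 in shCtrl was -0.80 under TTX and 0.73 under BIC, against 0.00062 and -0.0010 over all genes. In the shRai1 arm 5 were lower under TTX (12.3% of all genes) and 9 were higher under BIC (17.6%), with medians of -0.60 and 1.27, per the authors' deposited tables. Both drugs were set against the same vehicle libraries, so the 2 responses of an arm are not independent. Cell type markers moved as well. Under TTX in shCtrl 4 of 10 oligodendrocyte lineage markers were lower and 1 higher (median -0.48), 4 of 10 astrocyte markers were lower and 0 higher (median -0.20), and 3 of 10 excitatory markers were higher and 0 lower, per the authors' deposited table. Under BIC 6 of 10 excitatory markers were lower and 4 higher (median -0.61), 3 astrocyte markers were lower and 1 higher, and 2 oligodendrocyte lineage markers were lower and 0 higher. Over the 3 shCtrl conditions the summed FPKM ran from 265 to 379 for the excitatory list, from 278 to 352 for the astrocyte list and from 171 to 198 for the oligodendrocyte lineage list, with no marker of these at 0. In shRai1 5 of 10 oligodendrocyte lineage markers were higher and 0 lower under TTX, and 6 of 10 excitatory markers were lower and 4 higher under BIC, per the authors' deposited tables. The part of these cells in the precursor responses was not tested. In a mixed culture a lower value can come from fewer cells of a type or from less transcription per cell, which cannot be told apart.

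**Figure D2:**
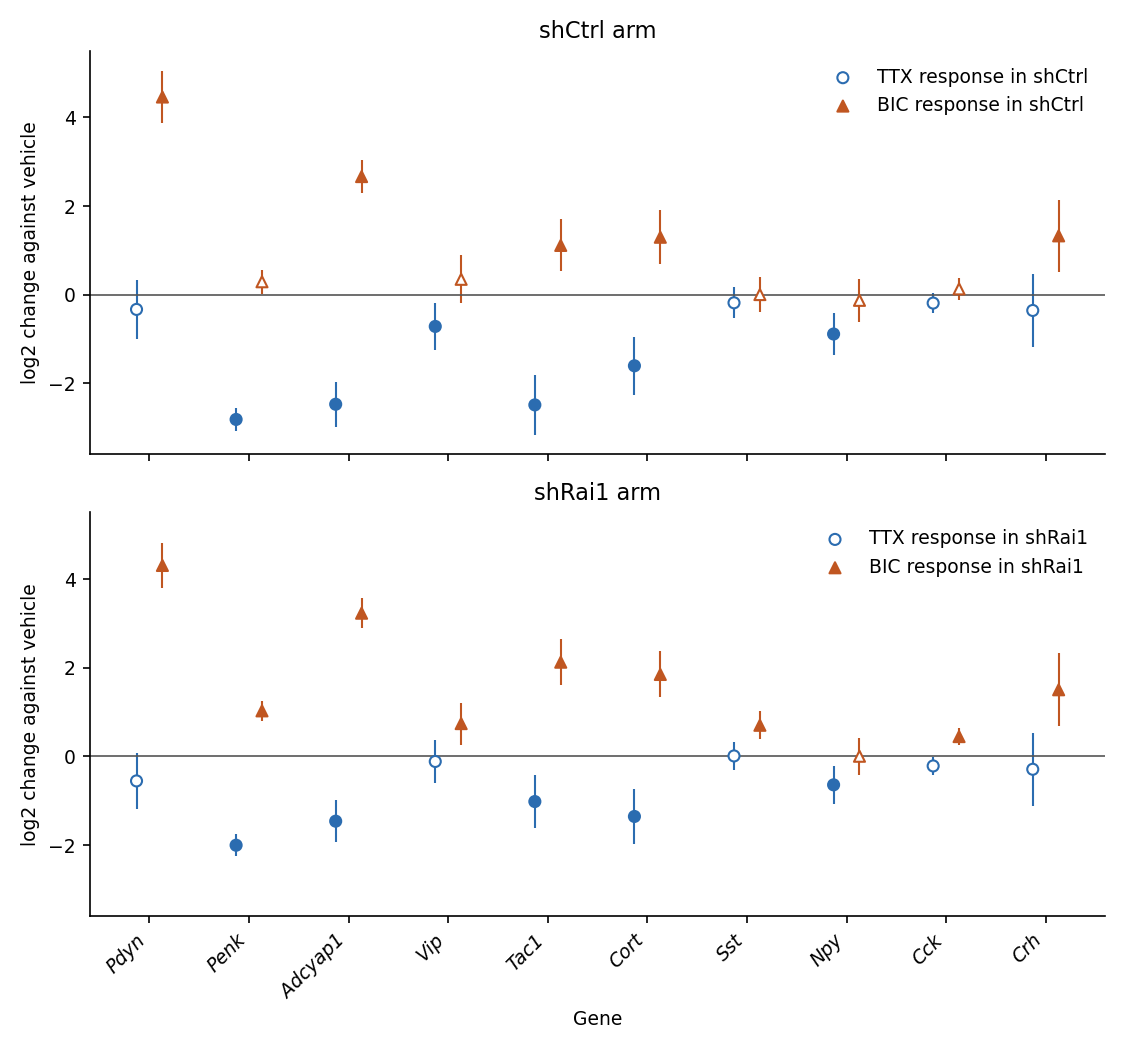
Log2 change against vehicle in the shCtrl arm (top) and the shRai1 arm (bottom) for TTX (circles) and BIC (triangles), from the authors' deposited tables; lines are 95% intervals and filled symbols passed an adjusted p of 0.05. Penk, Adcyap1, Tac1, Cort and Npy are lower under TTX in both arms, and Pdyn has the largest BIC change in each, 4.46 and 4.31.

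Of the opioid precursors, Pdyn passed under BIC and Penk under TTX in the control arm. Pdyn, the source of dynorphins, which act on kappa opioid receptors, went from 0.483 FPKM in shCtrl vehicle to 5.05 in BIC (3.07 to 7.02) and was at 0.258 in TTX (0 to 0.750), per the authors' deposited table. The BIC bounds lie wholly above the vehicle bounds, and the TTX bounds overlap them. In the authors' deposited comparison Pdyn rose 22.0-fold under BIC in shCtrl (log2 change 4.46, SE 0.294, DESeq2 Wald test with Benjamini-Hochberg adjustment, adjusted p 1.65e-49) and 19.8-fold in shRai1 (4.31, adjusted p 4.10e-62). The ratio of the deposited FPKM gave a smaller log2 change, 3.39. Under TTX the change of Pdyn did not pass per the authors' deposited tables, at -0.33 in shCtrl (SE 0.343, adjusted p 0.543) and -0.55 in shRai1 (SE 0.324, adjusted p 0.200).

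Penk, the source of enkephalins, which act on delta and mu opioid receptors, moved most under TTX. It went from 90.5 FPKM in shCtrl vehicle to 12.8 in TTX (8.23 to 17.3), with bounds well apart, and to 106 in BIC (81.8 to 131), with overlapping bounds, per the authors' deposited table. It fell 7.02-fold under TTX in shCtrl (log2 change -2.81, SE 0.137, adjusted p 1.76e-90) and 4.00-fold in shRai1 (-2.00, SE 0.124, adjusted p 8.91e-56), by the Wald test of the authors' deposited tables. Under BIC its change in shCtrl was 0.29 (SE 0.139) and did not pass (adjusted p 0.0914, or 0.0471 with changes centred on the median gene), while in shRai1 Penk rose 2.04-fold (1.03, SE 0.112, adjusted p 8.28e-19), again per the authors' deposited tables.

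Of the PACAP and VIP precursors, which are related peptides that raise cAMP through shared receptors, Adcyap1 moved far under both drugs. Its level was 0.624 FPKM in TTX (0 to 1.35), 5.36 in vehicle and 29.6 in BIC (22.2 to 37.0) in shCtrl, with no overlap between the bounds of any pair of conditions per the authors' deposited table. It fell 5.54-fold under TTX (log2 change -2.47, SE 0.259, adjusted p 1.32e-19) and rose 6.33-fold under BIC (2.66, SE 0.193, adjusted p 5.20e-41) in shCtrl, by the Wald test of the authors' deposited tables. In shRai1 the authors' deposited tables gave a 2.75-fold fall (-1.46, adjusted p 3.60e-08) and a 9.37-fold rise (3.23, adjusted p 6.56e-74). The deposited FPKM gave -3.10 under TTX, further from 0 than the comparison.

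Vip, a marker of interneurons that inhibit other interneurons, moved less and passed under a different drug in each arm. Its shCtrl level was 2.61 FPKM in TTX (0.934 to 4.28), 3.88 in vehicle and 4.29 in BIC (2.06 to 6.51), all with overlapping bounds per the authors' deposited table. Vip fell 1.64-fold under TTX in shCtrl (log2 change -0.71, SE 0.267, adjusted p 0.0308), while its change in shRai1 was -0.11 (adjusted p 0.793), by the Wald test of the authors' deposited tables. Under BIC it changed by 0.35 in shCtrl, which did not pass (adjusted p 0.358), and rose by 0.74 in shRai1 (adjusted p 0.00636) per the authors' deposited tables. The difference between the arms did not pass for TTX (0.60, SE 0.365, Wald test with Benjamini-Hochberg adjustment, adjusted p 0.683) or for BIC (0.39, adjusted p 1.00).

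Tac1, the precursor of substance P and neurokinin A, moved under both drugs. It stood at 0.120 FPKM in TTX (0 to 0.756), 2.64 in vehicle and 3.05 in BIC (0.717 to 5.39) in shCtrl, and only a narrow overlap joined the TTX and vehicle bounds per the authors' deposited table. Its fall under TTX was 5.59-fold in shCtrl (log2 change -2.48, SE 0.347, adjusted p 2.51e-11) and 2.02-fold in shRai1 (-1.02, SE 0.304, adjusted p 0.00432), by the Wald test of the authors' deposited tables. Under BIC Tac1 rose 2.16-fold in shCtrl (1.11, SE 0.300, adjusted p 0.00101) and 4.36-fold in shRai1 (2.12, SE 0.263, adjusted p 7.55e-15) per the authors' deposited tables. The deposited FPKM gave other sizes for shCtrl, -4.46 under TTX and 0.21 under BIC. The sign was the same in both sources for either drug, and the cause of the difference in size was not tested.

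Cort and Sst encode close relatives that bind the same somatostatin receptors, and Cort passed under both drugs in both arms, while Sst passed in 1 of the 4 responses. Cort had 7.91 FPKM in TTX (1.69 to 14.1), 11.8 in vehicle and 22.0 in BIC (11.2 to 32.8) in shCtrl, in rising order but with overlapping bounds per the authors' deposited table. In the authors' deposited comparisons Cort fell 3.04-fold under TTX (log2 change -1.60, SE 0.336, adjusted p 2.16e-05) and rose 2.45-fold under BIC (1.30, SE 0.308, adjusted p 0.000154) in shCtrl, and in shRai1 it fell 2.55-fold (-1.35, adjusted p 0.000116) and rose 3.60-fold (1.85, adjusted p 2.66e-11). The deposited FPKM gave a smaller fall, -0.58. Sst, in contrast, stood at 159 FPKM in TTX (119 to 199), 162 in vehicle and 154 in BIC (116 to 192) per the authors' deposited table, with bounds that overlap almost entirely. The Sst change in shCtrl was -0.18 under TTX (95% interval -0.54 to 0.17, adjusted p 0.521) and 0.0034 under BIC (-0.38 to 0.39, adjusted p 0.993) by the Wald test of the authors' deposited tables. In shRai1 Sst rose 1.63-fold under BIC (0.70, SE 0.160, adjusted p 5.48e-05) and changed by 0.01 under TTX (-0.31 to 0.33, adjusted p 0.973) per the authors' deposited tables.

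Npy, an interneuron peptide that dampens excitatory release, responded to silencing and not detectably to disinhibition. It had 32.4 FPKM in TTX (19.6 to 45.2), 41.4 in vehicle and 35.2 in BIC (21.6 to 48.8) in shCtrl per the authors' deposited table, with overlapping bounds. It fell under TTX by 1.85-fold in shCtrl (log2 change -0.89, SE 0.237, adjusted p 0.00132) and 1.56-fold in shRai1 (-0.64, SE 0.218, adjusted p 0.0143), by the Wald test of the authors' deposited tables. The fall in FPKM was smaller, -0.35. Under BIC its change was -0.13 in shCtrl (95% interval -0.61 to 0.36, adjusted p 0.749) and 0.0042 in shRai1 (-0.41 to 0.42, adjusted p 0.991) per the authors' deposited tables.

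Cck, made by a class of basket interneurons and by many excitatory cells, changed little. Its level in shCtrl was 138 FPKM in TTX (104 to 172), 133 in vehicle and 101 in BIC (75.8 to 127) per the authors' deposited table, with overlapping bounds. The Cck change was -0.19 under TTX (95% interval -0.41 to 0.03, adjusted p 0.228) and 0.13 under BIC (-0.11 to 0.38, adjusted p 0.458) in shCtrl by the Wald test, and in shRai1 -0.21 (adjusted p 0.0906) and 0.45 (SE 0.0986, 1.36-fold, adjusted p 2.75e-05), per the authors' deposited tables. The FPKM gave the opposite sign in shCtrl, 0.05 under TTX and -0.39 under BIC.

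Crh, a stress peptide of some forebrain interneurons, was the least counted of the 10 and rose under BIC. It had 0.271 FPKM in TTX (0 to 1.0), 0.528 in vehicle and 2.19 in BIC (0.539 to 3.84) in shCtrl per the authors' deposited table, with overlapping bounds. Its TTX change was -0.35 in shCtrl (SE 0.415) and -0.29 in shRai1 (SE 0.422) per the authors' deposited tables, which give it no adjusted p there. Adjusted over every gene with a p-value by the Benjamini-Hochberg method, these Wald tests gave adjusted p of 0.734 and 0.810. Crh rose under BIC by 2.51-fold in shCtrl (1.33, SE 0.416, adjusted p 0.00562) and 2.83-fold in shRai1 (SE 0.421 in log2 units, adjusted p 0.00127), by the Wald test of the authors' deposited tables. The ratio of the deposited FPKM in shCtrl was larger, at 4.14-fold.

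Averaged over both arms, 5 precursors passed under both drugs and 5 under one of them. TTX lowered 6 of 10 (17.5% of 18241 genes were lower) and BIC raised 9 of 10 (22.4% were higher). Adcyap1, Penk, Tac1, Cort and Cck passed in both averages, Npy passed under TTX alone, and Pdyn, Vip, Sst and Crh passed under BIC alone, in a Wald test (two-sided, Benjamini-Hochberg adjusted). The Cck averages were small, -0.20 under TTX (SE 0.0752, adjusted p 0.0251) and 0.29 under BIC (SE 0.0795, adjusted p 0.000863). The Sst average under BIC was 0.35 (SE 0.127, adjusted p 0.0139, same Wald test). It joins 0.0034 in shCtrl with 0.70 in shRai1, and the difference between the arms did not pass (0.70, SE 0.255). Subtracting the TTX change from the BIC change removes the shared vehicle libraries and gives the distance between the levels in BIC and in TTX, here called the range. In shCtrl this range was 35.1-fold for Adcyap1, 27.6-fold for Pdyn, 12.1-fold for Tac1, 8.59-fold for Penk and 7.45-fold for Cort, and in shRai1 it was 25.8-fold, 29.0-fold, 8.82-fold, 8.16-fold and 9.20-fold. For Sst the range was 1.14-fold in shCtrl and 1.61-fold in shRai1, and for Cck 1.25-fold and 1.58-fold. No test was run on these ranges. Adcyap1, Tac1 and Cort, with wide ranges, and Sst and Cck, with narrow ones, all hold the core shown above. Vip, with a range of 2.09-fold in shCtrl and 1.81-fold in shRai1, holds it too, while Pdyn, with a wide range, and Npy, at 1.69-fold and 1.56-fold, do not hold it in these windows.

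The remaining peptide systems gave the setting of these changes. Of 24 other neuropeptide precursors, 7 were lower and 0 higher under TTX in shCtrl per the authors' deposited table (10.9% and 8.59% of genes). Under BIC 8 were higher and 1 lower (13.7% and 13.4%). Only 13 of the 24 had an adjusted p under TTX and 14 under BIC, and 8 stood at 0 FPKM in shCtrl vehicle. Medians over all 24 were -0.09 and 0.03, and so include genes that could not be called. Nts, the neurotensin precursor, fell 8.43-fold under TTX (log2 change -3.08, SE 0.379) and Nppc, which encodes C-type natriuretic peptide, 3.82-fold (-1.93, SE 0.233), per the authors' deposited table. Pnoc, the nociceptin precursor and the nearest relative of the opioid precursors, fell 3.80-fold under TTX (-1.93, SE 0.103) and rose 4.27-fold under BIC (2.09, SE 0.106) per the authors' deposited tables. Grp, which encodes gastrin-releasing peptide, rose 5.47-fold under BIC (2.45, SE 0.202), and Cartpt, which is listed at 0 FPKM in shCtrl vehicle, was also higher (adjusted p 1.31e-05, Wald test), per the authors' deposited table. The deposited FPKM in shCtrl gave other sizes for some of these. It moved less for Grp, from 7.98 in vehicle to 18.3 in BIC, and for Pnoc, from 20.5 in vehicle to 11.2 in TTX. For Nts it moved more, from 5.66 in vehicle to 0.430 in TTX. The 1 fall under BIC was that of Edn1, the endothelin precursor (-1.01, SE 0.394). In shRai1 7 were lower and 0 higher under TTX (12.3% of genes were lower and 22.3% passed in either direction), and 8 were higher and 2 lower under BIC (17.6% of genes higher and 17.6% lower), per the authors' deposited tables. There 13 of the 24 had an adjusted p under TTX and 15 under BIC.

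Receptors of the same peptides moved in both directions. Of 21, 5 were higher and 4 lower under TTX in shCtrl (8.59% and 10.9% of all genes), and 5 higher and 3 lower under BIC (13.7% and 13.4%), per the authors' deposited tables. Adcyap1r1, the PACAP receptor, went the opposite way to its ligand gene, with a rise of 0.68 under TTX (SE 0.105) and a change of -0.56 under BIC (SE 0.119) on the log2 scale per the authors' deposited tables. Oprd1, the delta opioid receptor gene, rose by 0.90 under TTX (SE 0.141), where Penk fell, and changed by -1.54 under BIC (SE 0.176), per the authors' deposited tables. Cckbr, a cholecystokinin receptor gene, fell 3.21-fold under TTX (-1.68, SE 0.156), although Cck itself did not pass there. Sstr1 fell 2.69-fold under TTX (-1.43, SE 0.190) and rose 3.40-fold under BIC (1.76, SE 0.173), Sstr2 changed by -0.97 under TTX (SE 0.192) and Sstr3 changed by -0.99 under BIC (SE 0.274), all somatostatin receptor genes per the authors' deposited tables. Tacr3, a tachykinin receptor gene, rose 6.26-fold under BIC (2.65, SE 0.170) from 0.206 FPKM in vehicle, and Npy1r rose 2.06-fold (1.04, SE 0.152). Crhr1 rose by 0.69 under TTX (SE 0.161) per the authors' deposited table. In shRai1 the receptor counts were 4 higher and 3 lower under TTX (12.3% of genes were lower and 22.3% passed in either direction) and 8 higher and 3 lower under BIC (17.6% of genes higher and 17.6% lower) per the authors' deposited tables.

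Since many of the precursors are made by interneurons, 25 genes of GABAergic interneuron identity were read beside them. Under TTX in shCtrl 9 were lower and 2 higher (10.9% and 8.59% of all genes), and under BIC 8 were higher and 6 lower (13.7% and 13.4%), per the authors' deposited tables, with medians of -0.11 and -0.16. Gad1, an enzyme of GABA synthesis, fell 1.93-fold under TTX and rose 1.66-fold under BIC, and Gad2 rose 2.77-fold under BIC, per the authors' deposited tables. In shCtrl their FPKM summed to 519 in TTX, 625 in vehicle and 657 in BIC. Much of the lower sum in TTX was Dlx1, at 71.7 FPKM in vehicle and 17.6 in TTX. The deposited comparison gave Dlx1 the opposite direction, a log2 change of 0.46 under TTX (SE 0.149). The part of cell composition in the precursor changes was not tested.

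For Penk, Tac1, Adcyap1 and Cort, the precursors called in at least 3 of the 4 responses, the genes with the nearest 7 log2 changes were found by Euclidean distance over 12333 genes with a mean count of at least 50. Nearest to Penk were Fosb (distance 0.459) and Fos (0.470), which encode AP-1 subunits, and Rnd3 (0.475). Fos changed by -2.68 under TTX and 0.42 under BIC in shCtrl per the authors' deposited tables, close to the -2.81 and 0.29 of Penk. Cort lay nearest to Nfil3 (0.249), a leucine zipper transcription factor gene, then Opn3 (0.494) and Itprip (0.498). Adcyap1 had no gene as close, with Atf3 at 1.08, Scg2 at 1.28 and Cyr61 at 1.36, and Tac1 was next to Cyr61 (1.06), Rgs4 (1.24) and Gadd45g (1.25). These distances are descriptions, and all genes of a comparison share its libraries.

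The Rai1 shRNA was asked next for an effect on the precursors within each treatment. In vehicle, 9 of the 10 lay below 0 in shRai1 against shCtrl, as did 51.6% of all genes named in that table, and 2 were lower at an adjusted p under 0.05 (0.517% of all genes), per the authors' deposited table. Penk fell 1.72-fold (log2 change -0.78, SE 0.126, adjusted p 1.89e-06) and Adcyap1 1.79-fold (-0.84, SE 0.208, adjusted p 0.0172), by the Wald test of the authors' deposited table. The other 8 ran from -0.55 for Vip (SE 0.263, adjusted p 0.406) to 0.01 for Pdyn, and Tac1 was at -0.53 (SE 0.298, adjusted p 0.523), per the authors' deposited table. In the same comparison 4 of 10 oligodendrocyte lineage markers fell, among them Pdgfra (-1.37, SE 0.132), and 1 of 10 astrocyte markers fell, while 0 of 10 excitatory markers passed. The median of the oligodendrocyte lineage markers was -0.67, and in shCtrl their FPKM summed to 171 in TTX, 198 in vehicle and 197 in BIC with none at 0. The part of these cells in the falls of Penk and Adcyap1 was not tested.

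Under either drug no difference between the arms passed for a precursor. In TTX 0 of 10 precursors were called (0.0283% of all genes) and 1 had an unadjusted p under 0.05 (3.3% of all genes), per the authors' deposited table. That gene was Tac1, at 0.94 (SE 0.351, unadjusted p 0.00747, adjusted p 1.00, Wald test of the authors' deposited table). In BIC 0 of 10 were called (0.00944% of all genes) and 1 had an unadjusted p under 0.05 (2.93%), which was Sst at 0.40 (SE 0.178, unadjusted p 0.0236, adjusted p 1.00, Wald test of the authors' deposited table). Penk was at 0.03 in TTX (95% interval -0.24 to 0.29) and -0.05 in BIC (-0.29 to 0.20), and Adcyap1 at 0.17 in TTX and -0.27 in BIC, per the authors' deposited tables. Of the oligodendrocyte lineage markers 1 of 10 was higher in TTX and 1 of 10 lower in BIC, with list medians of 0.24 and -0.33. Both calls were Pdgfra, at 0.50 in TTX (SE 0.115) and -0.90 in BIC (SE 0.132). The part of these cells was not tested.

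**Figure D3:**
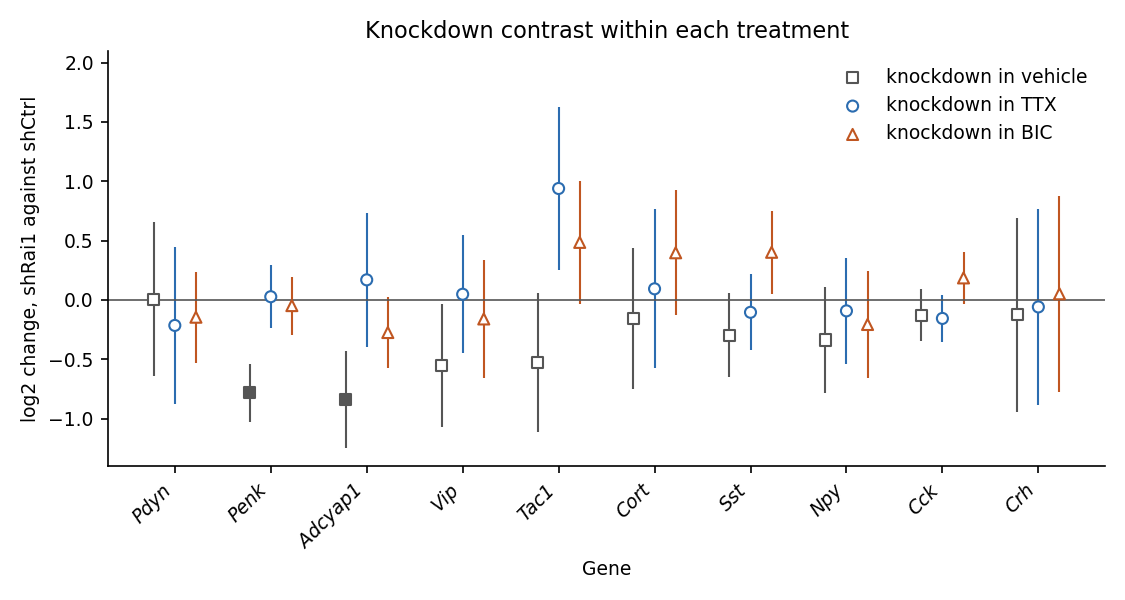
Log2 change of shRai1 against shCtrl in vehicle (squares), TTX (circles) and BIC (triangles), from the authors' deposited tables; lines are 95% intervals and filled symbols passed an adjusted p of 0.05. Penk (-0.78) and Adcyap1 (-0.84) are below 0 in vehicle and their intervals include 0 under both drugs.

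Whether the drug responses themselves differed between the arms was tested as an interaction, the shRai1 response less the shCtrl one, which equals the knockdown difference under the drug minus that in vehicle and so rests on the same vehicle libraries. For TTX 1 precursor passed (0.587% of 18241 genes were higher). This was Penk, whose fall was smaller in shRai1 by 0.81 (SE 0.185, Wald test (two-sided, Benjamini-Hochberg adjusted), adjusted p 0.00487). Tac1 had a larger but less certain difference of 1.47 (SE 0.461, adjusted p 0.0988), and Adcyap1 one of 1.01 (SE 0.356, adjusted p 0.184). In the same test 6 of 10 oligodendrocyte lineage markers were higher, with a list median of 0.93, and their part in the Penk difference was not tested. For BIC no precursor passed (0.0219% of all genes), and 5 of 10 had an unadjusted p under 0.05, against 3.03% of all genes, all with the higher log2 change in shRai1. These were Penk at 0.74 (SE 0.179, adjusted p 0.141), Tac1 at 1.01 (SE 0.398), Sst at 0.70 (SE 0.255), Adcyap1 at 0.57 (SE 0.261) and Cck at 0.32 (SE 0.159), the last 4 with an adjusted p of 1.00 in the Wald test with Benjamini-Hochberg adjustment. For Pdyn the difference was -0.15 for BIC (95% interval -0.91 to 0.61), beside rises of 22.0-fold and 19.8-fold in the arms.

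**Figure D4:**
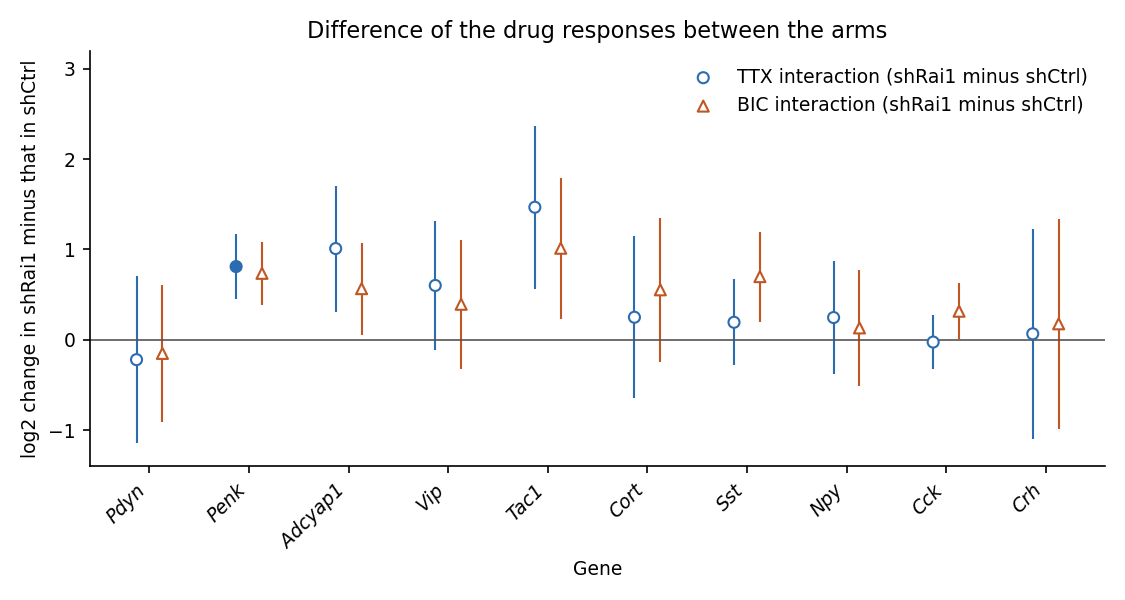
Response in shRai1 minus response in shCtrl for TTX (circles) and BIC (triangles), in log2 units; lines are 95% intervals and the filled symbol passed an adjusted p of 0.05. Penk under TTX (0.81) is the one that passed, and Tac1 under TTX has the largest estimate, 1.47.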

How the data were processed

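Nascent RNA of 16 Bru-seq libraries in 6 groups was analysed from the authors' summaries. The members and lists were chosen with earlier results of these data known. The submitters' processing notes name TopHat2 2.1.0, Bowtie2 2.2.6, DESeq2 and the genome build mm9, in no stated order. The authors' 7 comparison tables list 22919 genes, of which 21192 were tested. Per the file headers they hold a mean normalized count, a signal scaled by the authors, a log2 change with its standard error, a Wald score that the authors computed, and a p-value with its adjusted value. Gene names are absent from the comparison of the arms in vehicle. Here 20107 of its genes were named by their unique mean count, checked by the closure of log2 changes to within 1e-09, and 1085 were left unnamed. The deposited FPKM table holds 1 value with bounds per condition, pooled by the authors.

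From the deposited log2 changes, averages over arms and interactions were computed for 18241 genes whose FPKM averaged at least 0.1. The standard error of an interaction was the root of summed squares, and that of an average was this root scaled as for a mean. A two-sided Wald test and Benjamini-Hochberg adjustment over those genes followed. On simulated data with 200 genes changed by 1 log2 unit, 90% were recovered for the TTX interaction, 85.5% for the BIC interaction and 100% for the averages, with 4, 5, 8 (TTX average) and 18 (BIC average) false calls. The changed genes all had a mean count of at least 50, which Tac1, Cort and Crh do not reach. Errors were drawn from the deposited standard errors, so these were not themselves checked. The shares are over genes of differing standard error and are not those of a single precursor. For Adcyap1 the standard error of the TTX interaction was 0.356. In the authors' comparison tables the largest absolute log2 change among genes with a mean count under 1 was 0.79 and the largest standard error 0.423, so the deposited changes of low genes are bounded. A call is an adjusted p under 0.05. Deposited adjusted p-values absent after the authors' filter stayed absent. Named genes were the 10 members, at most 3 rises and 3 falls per list and response with an adjusted p under 0.05 and at least 0.5 FPKM on average, and the 3 nearest genes of members called in at least 3 of 4 responses. Gad1 and Gad2 and Pdgfra stand for their lists. Of the interneuron genes that the rule names, 1 is not reported here. The plan assumed values per library, and the deposited tests took their place. Alternatives were another threshold, a mean count of at least 50, centring on the median gene, and FPKM ratios with pseudocounts of 0.1 and 1. Further ones were Benjamini-Hochberg adjustment over every gene with a p-value and a mean of at least 0.5 FPKM. For the interactions the standard error was also taken from the knockdown comparisons. Python 3.11.15, numpy 2.4.6, pandas 2.3.3, scipy 1.17.1 and matplotlib 3.10.9 were used.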

Additional observations from a re-analysis of the deposited data

Results flagged for a closer look

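The TTX response of Penk differed between the arms. The shRai1 response less the shCtrl one came to 0.81 on the log2 scale (SE 0.185), and the difference itself passed a Wald test (two-sided, Benjamini-Hochberg adjusted, adjusted p 0.00487). Penk fell in both arms, by 7.02-fold in shCtrl and 4.00-fold in shRai1 per the authors' deposited tables. Its level in shRai1 vehicle was 1.72-fold below that in shCtrl vehicle (log2 change -0.78), a group of 2 libraries, while in TTX the arms differed by 0.03. The genes nearest to Penk, picked in part on these values, had similar ones. Fosb was at -0.59 in vehicle and 0.12 in TTX, Fos at -0.72 and 0.11, and Rnd3 at -0.60 and 0.04.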

How the results depend on the processing

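No paired analysis was possible because the files hold no value per library, so neither a replicate block nor leaving out single replicates could be run. Counts of called precursors moved by more than 1.5 times in 4 cases. Restricting to genes with a mean count of at least 50 left 2 under BIC in shCtrl (main 5) and 3 under TTX in shRai1 (main 5), because that filter drops precursors. An adjusted p threshold of 0.01 left 1 for the knockdown in vehicle (main 2), and a threshold of 0.1 gave 2 for the TTX interaction (main 1). The other 68 counts stayed within 1.5 times the main count, several of them with 1 to 3 precursors fewer or 1 more. Among single precursors 5 calls were lost at a threshold of 0.01, and calls were gained at 0.1 (Penk under BIC in shCtrl, Cck under TTX in shRai1, the Tac1 TTX interaction and the Vip TTX average), with centring (Penk) and with a mean count of at least 50 (Vip). The ratio of FPKM, with no pseudocount, lay outside the 95% interval of the deposited change for 5 of 10 precursors under TTX and 3 of 10 under BIC in shCtrl, and the cause was not tested. With pseudocounts of 0.1 or 1 its sign was opposite for Cck under both drugs and for Sst under BIC (-0.07), none of them called. For some genes of the other lists, such as Grp, Nts and Calb2, the deposited FPKM also gave other sizes. The depth of single libraries is unknown, and Crh, with a mean count of 5.02, rests on the fewest reads.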

Other observations

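Genes of interneuron identity that the text above did not name moved unevenly. In shCtrl Nos1, which marks nitric oxide producing interneurons, rose 2.03-fold under TTX (log2 change 1.02, SE 0.123) and Ndnf, a marker of neurogliaform cells, fell 2.91-fold (-1.54, SE 0.178), in the authors' deposited table. Calb1, a calcium-binding protein gene, fell 2.39-fold under TTX (-1.26, SE 0.167) in the authors' deposited table. Calb2, which encodes calretinin and is often found with Vip, fell 4.92-fold under BIC (-2.30, SE 0.339) in the authors' deposited table, while Vip did not pass there. The deposited FPKM of Calb2 fell less, from 13.8 in vehicle to 8.88 in BIC. Lhx6, a transcription factor gene of the lineage that gives Sst cells, fell 1.80-fold under BIC (-0.85, SE 0.129) in the authors' deposited table. Nr2f2 rose 2.02-fold under BIC (1.02, SE 0.145) in the authors' deposited table.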
